A study of Homo sapiens with 16 samples.

Results

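The genes described here are 9 growth arrest genes: the CIP/KIP inhibitors of cyclin-dependent kinases CDKN1A (p21), CDKN1B (p27) and CDKN1C (p57), the INK4 inhibitors CDKN2A (p16 and p14ARF), CDKN2C (p18) and CDKN2D (p19), and the stress-inducible genes GADD45A, GADD45B and GADD45G. They were taken by symbol from a written list, chosen with earlier results of these data known, and are 9 of the 35052 genes in the deposited tables. Of the 9, 8 passed the filter on low counts and were tested. CDKN2A had no reads and was not tested. GADD45G passed the filter through its 6 h libraries, so its test at 6 h is a description and supports nothing on its own.

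Cyclin-dependent kinases, switched on by cyclins, drive cells through the division cycle. CIP/KIP proteins bind and block many cyclin-kinase pairs, whereas INK4 proteins bind the monomeric kinases CDK4 and CDK6 and keep them from cyclin D. GADD45 proteins are small acidic partners of stress kinase pathways, of the kinase CDK1 and of PCNA. p21 is known to rise when blood-forming cells differentiate. K562 cells are known to have lost CDKN2A.

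K562 is an established human leukaemia line with erythroid and megakaryocytic potential, here of wild-type (WT) genotype, grown in RPMI with serum. PMA (phorbol 12-myristate 13-acetate, an activator of protein kinase C that leads K562 cells to leave the cycle and take on megakaryocyte-like features) was given at 25 nM. RNA was sequenced after ribosomal RNA removal at 0 h, before any PMA, and after 0.5 or 1.5 h, 3 or 6 h, and 24, 48 or 72 h of PMA, with 2 libraries for each of the 8 times. All 16 libraries share the cell line, genotype and medium, and the medium of the long cultures was renewed after 24 and after 48 h. No library without PMA at a later time was used, so time in PMA and time in culture cannot be told apart. The labels do not say that the 2 libraries of a time came from separate cultures, so p-values measure the spread between these libraries, which may be technical.

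The libraries held 27285773 to 54056289 estimated reads, and a count of 3 reads was worth 0.0623 to 0.128 CPM. CPM (counts relative to the normalised library size) is used to compare a gene between libraries, and TPM (relative abundance corrected for transcript length) to compare genes. TPM did not get the normalisation of CPM, so TPM levels and totals at different times are not on the scale of the fold changes. Replicates correlated at r = 0.984 to 0.993 over genes. The 8 erythroid markers of K562 summed to 1020 to 1945 CPM in every library, and markers of T cells, B cells and hepatocytes summed to at most 23.7, 2.12 and 0.261 CPM. Of 3 fibroblast markers, COL1A1 was at 2.06 to 4.25 CPM up to 6 h and at 109 to 244 CPM from 24 h, COL1A2 was at 3.22 to 6.89 and then at 10.2 to 19.7 CPM, and DCN stayed at 1.09 to 2.46 CPM. EPCAM held most of the epithelial list (18.99 to 87.2 CPM in sum), with KRT5 at no more than 0.0208 CPM. The 0 h replicates differed along GC content (r = -0.738 over genes), and so did the changes at 0.5 h (r = -0.768) and 1.5 h (r = -0.429). Replicates of the other times gave r of -0.572 to 0.380. The changes from 48 to 72 h gave r = -0.367, those from 24 to 48 h gave 0.155, and the remaining comparisons gave -0.168 to 0.145. Scaled to total counts, the median gene was lower by 0.12 on the log2 scale at 1.5 h, by 0.28 at 3 h, by 0.35 at 6 h and by 0.18 to 0.26 later, and the values below are relative to that shift.

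The upstream sequences of CDKN1A and GADD45B are shown because these were the members with the largest rises and they begin differently. RefSeq promoter windows on GRCh38.p14, from 250 bases before to 50 after a start site, were held for 7 of the 9 members, 10 windows in all. The bases printed are the part of each window upstream of its annotated exons, 5′ to 3′ on the plus strand, with GC boxes (GGGCGG, the core letters bound by SP1 and KLF factors) in capitals. They are chr6:36678464-36678657 for CDKN1A, 194 bases ending 56 bases before the RefSeq start, and chr19:2475877-2476121 for GADD45B, 245 bases ending 5 bases before it. The CDKN1A stretch lies in an intron of 3 minor transcripts that start further upstream, the first at 36676460, and each held at most 27.4 reads in a library.
CDKN1A: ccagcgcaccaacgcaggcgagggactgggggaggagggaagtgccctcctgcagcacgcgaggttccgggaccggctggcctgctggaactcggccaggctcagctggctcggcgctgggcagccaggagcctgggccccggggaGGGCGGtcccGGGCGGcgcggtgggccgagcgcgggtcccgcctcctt
GADD45B: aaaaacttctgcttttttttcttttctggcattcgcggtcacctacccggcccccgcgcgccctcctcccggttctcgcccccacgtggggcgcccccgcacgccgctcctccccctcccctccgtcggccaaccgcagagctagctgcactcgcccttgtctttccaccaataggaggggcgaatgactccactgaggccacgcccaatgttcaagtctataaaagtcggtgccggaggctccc
The CDKN1A stretch held 2 GC boxes and the whole window 4, on both strands. Such a box occurred in 45.0% of all 35116 windows. The CDKN1A window held no match to CCAAT (34.6% of windows), TATAAA (11.5%), the AP-1 letters TGANTCA (7.71%) or the E-box CACGTG (7.26%). The GADD45B window held no GC box but had 2 matches to CCAAT, 1 to TATAAA and 1 to CACGTG. CDKN1B had 1 GC box and 3 CCAAT matches, CDKN2D had 3 GC boxes and 1 CCAAT match, and the CDKN2C window that starts at 50968456 on chromosome 1 had 6 GC boxes. None of the 10 windows held TGANTCA, which says only that these letters were not in these windows. None of these 5 motifs contains another, and a match describes letters and no binding.

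**Figure D1:**
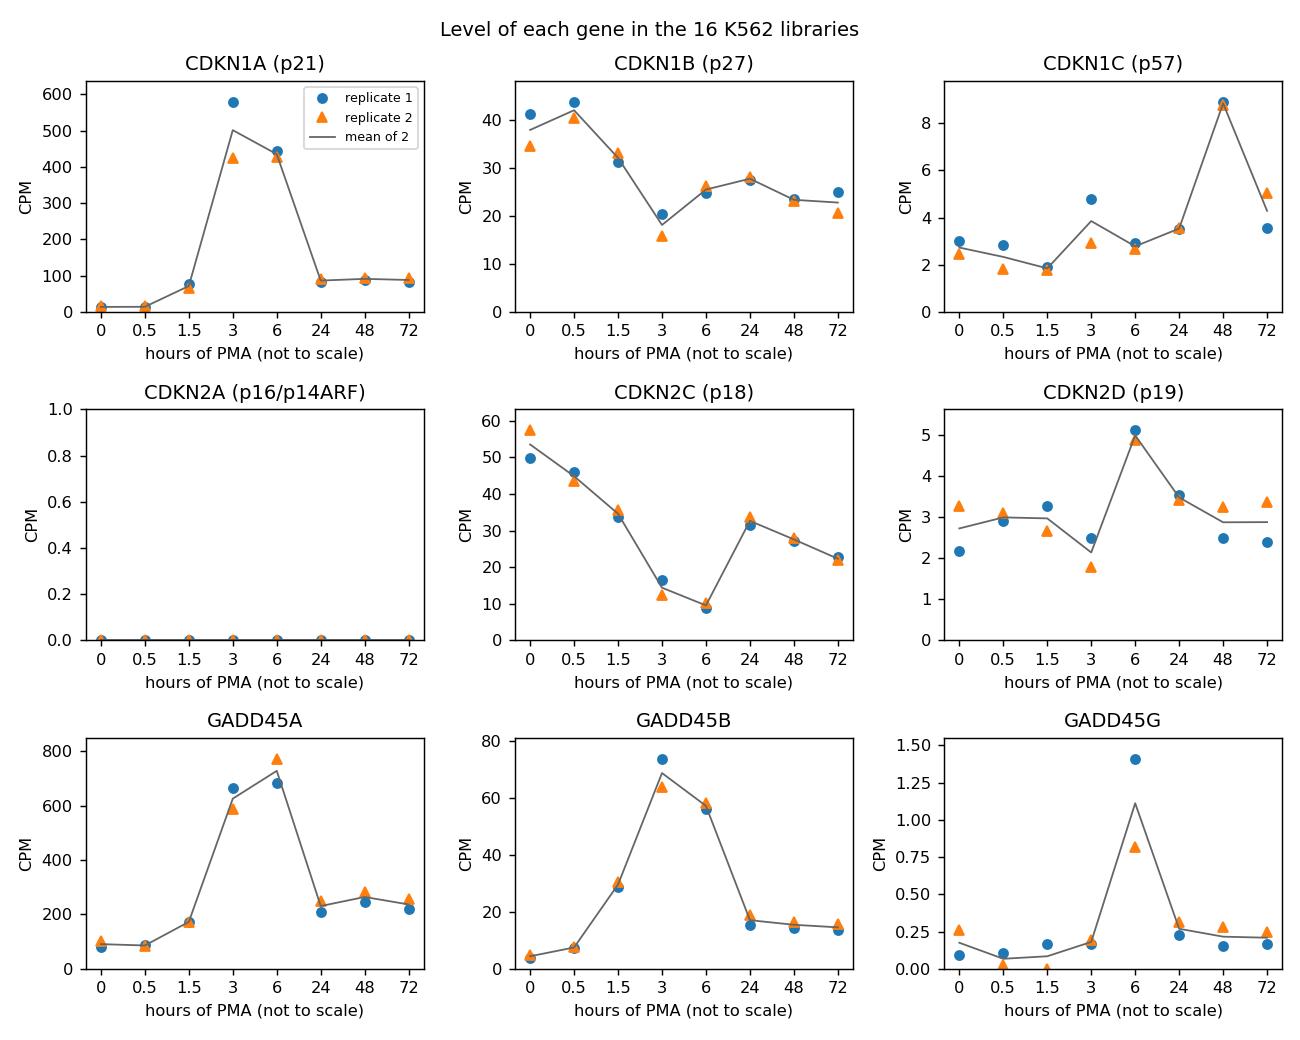
Level of each of the 9 genes in CPM (vertical axis, from 0) at each time of PMA (horizontal axis, equally spaced, not to scale), with circles for replicate 1, triangles for replicate 2 and a line through the mean of 2. CDKN1A, GADD45A and GADD45B peak at 3 or 6 h and level off from 24 h above their 0 h libraries, CDKN2C is lowest at 6 h, CDKN1C is highest at 48 h, and CDKN2A lies at 0 throughout.

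CDKN1A, the gene of p21, rose more than any other member and did so after 0.5 h. Its 6 libraries of the early course stood at 12.5 and 14.8 CPM at 0 h, 13.1 and 14.8 at 0.5 h, then 77.1 and 65.4 at 1.5 h. The 3 h libraries were at 579 and 424 CPM, those of 6 h at 444 and 426. Later levels were 82.01 and 90.5 CPM (24 h), 88.3 and 93.8 (48 h) and 82.9 and 92.9 (72 h). The 0 and 0.5 h libraries overlapped, every library from 1.5 h on was above them, and the 3 and 6 h libraries were above all others. The libraries of 59.2% of all tested genes did not overlap between 1.5 and 0 h, and between 6 and 0 h this held for 76.6%. In the edgeR quasi-likelihood test the rise was 2.39 ± 0.15 (log2, SE) at 1.5 h (adjusted p = 2.54e-07) and 5.20 ± 0.17 at 3 h (36.8-fold, adjusted p = 4.75e-11). It was 5.00 ± 0.17 at 6 h (31.9-fold, adjusted p = 2.42e-11). Between 6 and 24 h CDKN1A fell by 2.33 on the log2 scale, 5.04-fold (edgeR adjusted p = 2.78e-08), and it was still 2.69 ± 0.15 above 0 h at 72 h (6.46-fold, edgeR adjusted p = 4.24e-09). From 24 to 72 h the fitted difference was 0.03 ± 0.14 (edgeR adjusted p = 0.919). As in all bulk RNA, a change in the share of cells that make a transcript and a change in its amount per cell cannot be told apart.

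The reads of CDKN1A (ENSG00000124762, GRCh38 chromosome 6, 36676460 to 36687339, plus strand) fell mostly on its 2180 nt coding transcript, with a share of longer starts that peaked at 1.5 h. Transcripts whose opening exon ends at 36678939 rather than 36678798, which is 141 nt further on, took 25.1 and 26.0% of the gene's estimated reads at 1.5 h. In the other 14 libraries they took 3.11 to 11.9%, with 4.89 and 3.11% at 0 h and 8.51 and 11.1% at 3 h. Both 1.5 h libraries were thus above every other library. The reads are divided between overlapping transcripts by the authors' quantification, and no test was made of the shares. The antisense gene DINOL, which overlaps CDKN1A, had no transcript in the tables.

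**Figure D2:**
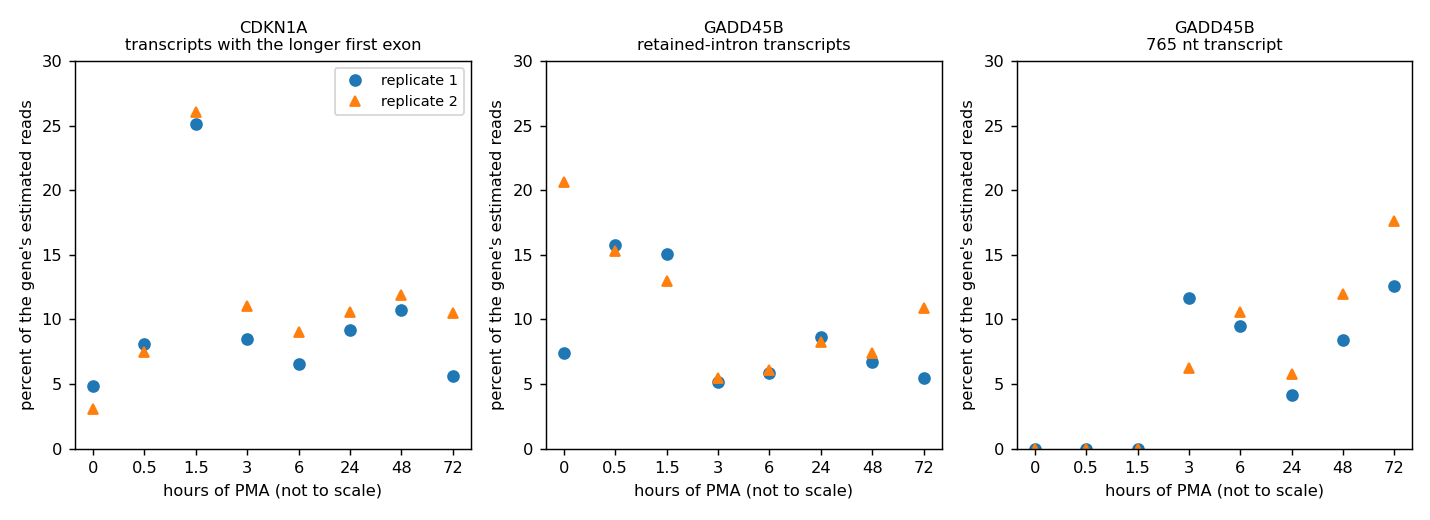
Share of a gene's estimated reads (percent, vertical axis) on 3 kinds of transcript at each time (horizontal axis, not to scale), circles for replicate 1 and triangles for replicate 2. The longer-exon CDKN1A transcripts reach 25.1 and 26.0% at 1.5 h, the GADD45B retained-intron share falls to 5.18 to 6.11% at 3 and 6 h, and the 765 nt GADD45B transcript is at 0 in the 6 libraries up to 1.5 h.

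CDKN1B, the gene of p27, moved the other way and by less. It stood at 41.2 and 34.6 CPM at 0 h, 43.7 and 40.3 at 0.5 h, 31.2 and 33.0 at 1.5 h, then 20.3 and 15.9 at 3 h. It then stood at 24.7 and 26.2 CPM at 6 h, 27.4 and 28.0 at 24 h, 23.6 and 23.1 at 48 h, then 24.9 and 20.6 at 72 h. All libraries from 1.5 h on were below both 0 h libraries, and the 3 h libraries were lowest. Such separation from the 0 h pair, in either direction, was common among all tested genes. Its share was 59.2% for the 1.5 h libraries, 61.4% for those of 3 h and between 72.6 and 77.9% for each later time. The same shares apply to the members below. The fall was by 1.06 on the log2 scale at 3 h (2.09-fold, SE 0.13, edgeR adjusted p = 2.08e-05), by 0.57 at 6 h (adjusted p = 0.00183), by 0.70 at 48 h (adjusted p = 4.36e-04) and by 0.73 at 72 h (adjusted p = 2.64e-04). At 24 h it was by 0.45 (edgeR adjusted p = 0.00889), but without 0 h replicate 1 the value was -0.31 (adjusted p = 0.0919). At 1.5 h the value was -0.24 (edgeR adjusted p = 0.217), or -0.33 with libraries scaled to total counts (adjusted p = 0.0490). CDKN1B lies at chromosome 12, 12715058 to 12722371 (ENSG00000111276), and 97.2 to 100% of its reads fell on the 2411 nt transcript.

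CDKN1C, the gene of p57, was low until 24 h and stood out at 48 h. Its libraries were at 3.01 and 2.45 CPM at 0 h, 2.83 and 1.83 at 0.5 h, 1.90 and 1.78 at 1.5 h, then 4.80 and 2.90 at 3 h. They were at 2.90 and 2.65 CPM at 6 h, 3.52 and 3.55 at 24 h, 8.90 and 8.78 at 48 h, then 3.54 and 5.03 at 72 h. The 48 h libraries lay above all other libraries. Against 0 h the rise at 48 h was 1.69 ± 0.26 (log2, SE; 3.24-fold, edgeR adjusted p = 7.90e-05), and against 24 h, in a comparison added after the values were seen, it was 1.32 ± 0.25 (2.50-fold, adjusted p = 0.00309). From 48 to 72 h the difference was -1.05 ± 0.25 (edgeR adjusted p = 0.0604). It was called in 7 of 26 alternatives, DESeq2 among them (adjusted p = 0.0248), over a range of adjusted p from 8.99e-04 to 0.347. The GC content of CDKN1C is 63.2%, and with the GC trend of the changes removed this difference was -0.93 (edgeR adjusted p = 0.0414). The COL1A1 level also reached its highest values at 48 h (241 and 244 CPM), and its part in the CDKN1C result was not tested. The 72 h rise of 0.65 ± 0.26 over 0 h (edgeR adjusted p = 0.0468) was lost in 13 of 26 alternatives, among them without 72 h replicate 2 (0.38, adjusted p = 0.299) and without 0 h replicate 2 (0.51, adjusted p = 0.214), and their adjusted p ran from 0.00285 to 0.299. At 3 h the value was 0.50 (edgeR adjusted p = 0.146), and it was called in 3 of 26 alternatives, among them without 3 h replicate 2 (0.82, adjusted p = 0.0293). CDKN1C (ENSG00000129757) lies on the minus strand of chromosome 11, 2883213 to 2885773.

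The makeup of the CIP/KIP group turned over with these changes. At 0 h CDKN1B held 68.4 and 62.6% of the group's summed TPM and CDKN1A 24.6 and 31.4%. At 1.5 h CDKN1A held 76.4 and 72.8%, and at 3 h 96.1 and 95.8%, with CDKN1B at 2.99 and 3.42%. At 72 h CDKN1A still held 76.2 and 79.1%. The group's summed level went from 42.8 and 35.9 TPM at 0 h to 378 and 306 TPM at 3 h and 86.9 and 95.0 TPM at 72 h. The group's total in TPM, without the normalisation of CPM, was thus above 0 h at 72 h in both libraries while CDKN1B was below it.

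**Figure D3:**
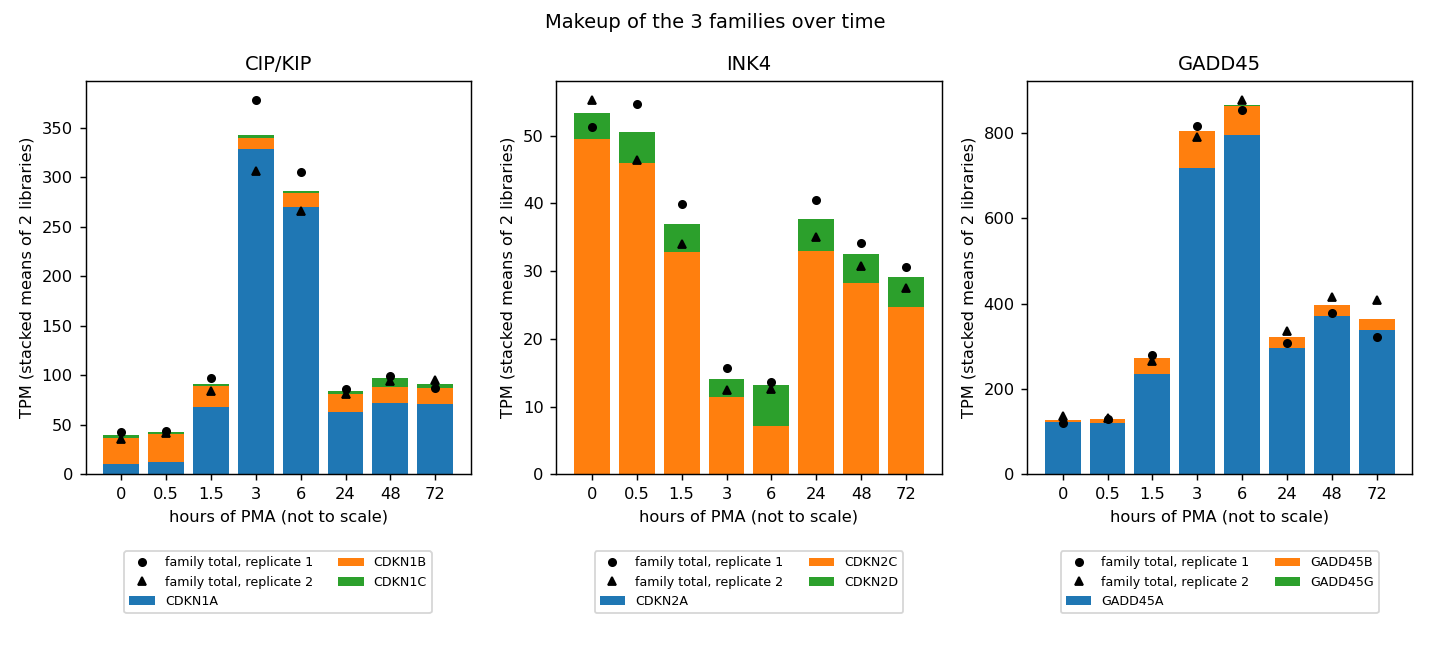
Summed TPM of the CIP/KIP, INK4 and GADD45 genes (vertical axes, from 0, each on its own scale) at each time (horizontal axis, not to scale). Stacked bars are the means of 2 libraries by gene, and black circles and triangles are the family totals in replicates 1 and 2. CIP/KIP and GADD45 totals are highest at 3 and 6 h, where the INK4 total is lowest.

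Among the INK4 genes, CDKN2A had 0 reads in all 16 libraries over its 14 listed transcripts (ENSG00000147889, chromosome 9, 21967753 to 21995301, minus strand), which allows up to 3 reads, 0.0623 to 0.128 CPM, per library and covers counting error only. Its neighbour CDKN2B, the INK4 gene of p15, and DMRTA1 beyond it were also at 0 in all libraries. The nearest gene on the other side, MTAP (21802543 to 21937651), an enzyme of the methionine salvage pathway, had 569 to 1304 reads per library. Further out, FOCAD had 53 to 149 reads, KLHL9 3 to 16 and ELAVL2 12 to 45. The run of genes at 0 thus began between MTAP and CDKN2A and ended before ELAVL2. Most type I interferon genes near KLHL9 were also at 0, and RNA alone does not tell a lost gene from a silent one.

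CDKN2C, the gene of p18, fell while CDKN1A rose. It stood at 49.8 and 57.4 CPM at 0 h, 46.2 and 43.6 at 0.5 h, 33.7 and 35.5 at 1.5 h, 16.5 and 12.3 at 3 h, then 8.96 and 10.1 at 6 h. It came back to 31.6 and 33.8 CPM at 24 h and then stood at 27.3 and 27.9 at 48 h and 22.7 and 21.9 at 72 h. All libraries after 0 h were below both 0 h libraries, and the 6 h libraries were lowest. At 0.5 h the value was -0.25 on the log2 scale (edgeR adjusted p = 0.239) and was not called. The libraries of 55.9% of all tested genes did not overlap between 0.5 and 0 h. The fall was by 0.63 on the log2 scale at 1.5 h (edgeR adjusted p = 0.00445), by 1.89 at 3 h (3.72-fold, adjusted p = 7.37e-08) and by 2.49 at 6 h (5.60-fold, SE 0.14, adjusted p = 2.62e-09). From 6 to 24 h CDKN2C rose by 1.77 ± 0.13 (3.42-fold, edgeR adjusted p = 1.47e-07), and at 72 h it was again lower than at 0 h, by 1.26 (2.40-fold, adjusted p = 1.23e-06). From 24 to 72 h it fell by 0.55 (edgeR adjusted p = 0.00567), but without 24 h replicate 2 the value was -0.45 (adjusted p = 0.0770). CDKN2C (ENSG00000123080) lies at chromosome 1, 50960745 to 50974633. Its 995 nt transcript, which starts at 50969944, took 10.9 to 34.2% of the reads.

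CDKN2D, the gene of p19, was low at all times and highest at 6 h. Its libraries were at 2.18 and 3.28 CPM at 0 h, 2.90 and 3.10 at 0.5 h, 3.28 and 2.68 at 1.5 h, 2.49 and 1.79 at 3 h, then 5.12 and 4.89 at 6 h. They were at 3.55 and 3.42 CPM at 24 h, 2.50 and 3.26 at 48 h, then 2.40 and 3.37 at 72 h. The 6 h libraries were above all others, and at every other time but 24 h the libraries overlapped those of 0 h. At 24 h the value was 0.35 on the log2 scale (edgeR adjusted p = 0.230) and was not called. The libraries of 77.9% of all tested genes did not overlap between 24 and 0 h. From 6 to 24 h the difference was -0.52 (edgeR adjusted p = 0.0797). It was called in 3 of 26 alternatives, among them with the GC trend of the changes removed (-0.74, edgeR adjusted p = 0.00308). The rise at 6 h was 0.87 ± 0.25 (log2, SE; 1.83-fold, edgeR adjusted p = 0.00747). It was lost without 0 h replicate 1 (0.61, adjusted p = 0.0848) and with libraries scaled to total counts (0.51, adjusted p = 0.0934). With CDKN2C low, CDKN2D made up 45.2 and 45.9% of the INK4 TPM at 6 h against 6.78 and 7.52% at 0 h, in a group total that went from 51.3 and 55.3 TPM to 13.6 and 12.6 TPM. CDKN2D (ENSG00000129355) lies at chromosome 19, 10566462 to 10569059, minus strand, and its 1422 nt transcript took 22.9 to 72.7% of the reads, with replicates far apart.

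**Figure D4:**
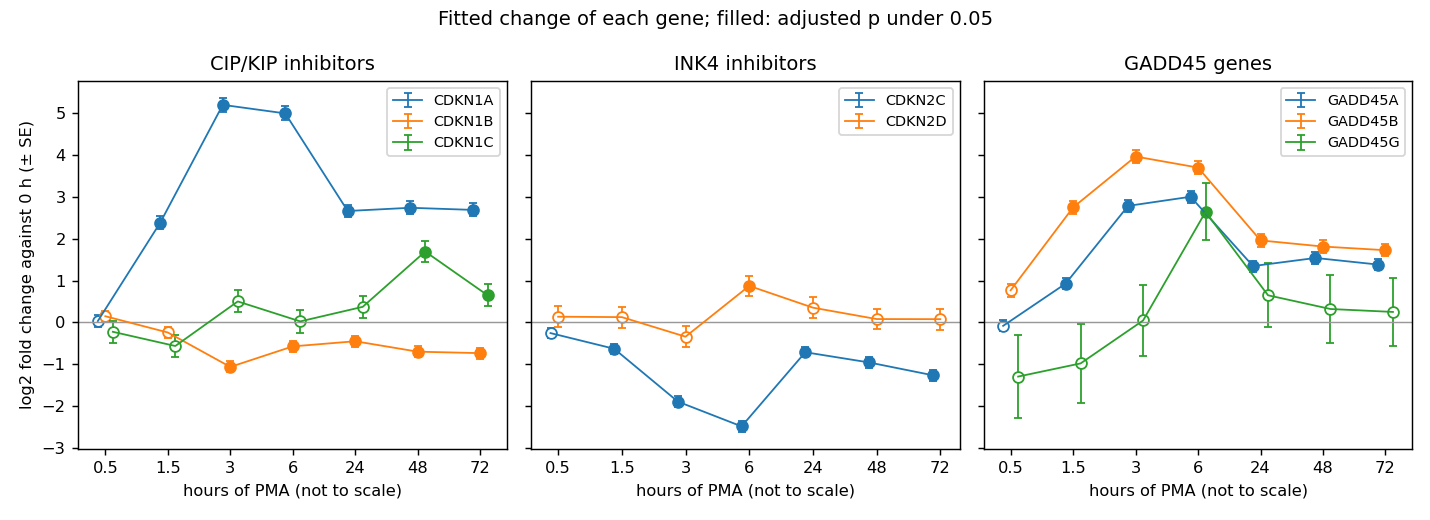
Fitted log2 fold change against 0 h with its standard error (vertical axis) for the 8 tested genes at the 7 later times (horizontal axis, not to scale), filled where the edgeR adjusted p is under 0.05. CDKN1A reaches 5.20 at 3 h, GADD45B 3.97 at 3 h and GADD45A 3.00 at 6 h, while CDKN2C reaches -2.49 at 6 h and CDKN1B -1.06 at 3 h.

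GADD45A was the most abundant member at every time and also rose. It stood at 80.9 and 100.3 CPM at 0 h, 86.4 and 84.9 at 0.5 h, 173 and 172 at 1.5 h, 663 and 588 at 3 h, then 684 and 771 at 6 h. It stood at 210 and 251 CPM at 24 h, 245 and 283 at 48 h, then 218 and 255 at 72 h. The 0.5 h libraries lay between the 0 h ones, every later library was above both, and the 3 and 6 h libraries were highest. The rise was 0.93 at 1.5 h (1.90-fold, edgeR adjusted p = 4.62e-04), 2.79 at 3 h (6.90-fold, adjusted p = 2.97e-09) and 3.00 ± 0.14 at 6 h (8.03-fold, adjusted p = 5.71e-10). From 6 to 24 h it fell by 1.66 on the log2 scale, 3.15-fold (edgeR adjusted p = 2.54e-07), and at 72 h it was 1.38 above 0 h (2.61-fold, edgeR adjusted p = 8.17e-07). GADD45A (ENSG00000116717) lies at chromosome 1, 67685061 to 67688338. Its 1352 nt transcript took 89.1 to 96.5% of the reads, and retained-intron transcripts took 4.22 to 5.96% at 1.5 h and 1.41 to 4.27% at other times.

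GADD45B rose by a larger factor than GADD45A, from a lower level. It stood at 3.84 and 4.96 CPM at 0 h, 7.34 and 7.63 at 0.5 h, 28.7 and 30.5 at 1.5 h, 73.7 and 63.8 at 3 h, then 56.3 and 58.1 at 6 h. It stood at 15.4 and 18.7 CPM at 24 h, 14.4 and 16.5 at 48 h, then 13.5 and 15.6 at 72 h. Every library after 0 h was above both 0 h libraries, and those of 3 h were highest. At 0.5 h the libraries of 55.9% of all tested genes also did not overlap those of 0 h. At 0.5 h the value was 0.77 ± 0.15 (log2, SE; 1.70-fold, edgeR adjusted p = 0.0956), which missed the threshold. It was called in 6 of 26 alternatives, among them without 0 h replicate 1 (0.60, adjusted p = 0.0315), with the GC trend of the changes removed (1.00, adjusted p = 6.74e-04) and in DESeq2 (0.77, adjusted p = 0.00719), over a range of adjusted p from 2.05e-04 to 0.487. The rise was 2.75 at 1.5 h (6.73-fold, edgeR adjusted p = 5.64e-08), 3.97 at 3 h (15.6-fold, adjusted p = 2.54e-10) and 3.70 at 6 h (13.0-fold, adjusted p = 1.74e-10). It fell by 1.74 from 6 to 24 h (3.34-fold, edgeR adjusted p = 1.93e-07) and was 1.73 above 0 h at 72 h (3.31-fold, adjusted p = 2.93e-07).

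The transcript makeup of GADD45B (ENSG00000099860, chromosome 19, 2476122 to 2478259, plus strand) was not the same at all times. Retained-intron transcripts took 12.9 to 15.8% of its reads at 0.5 and 1.5 h and 5.18 to 6.11% at 3 and 6 h. The 0 h libraries were apart at 7.37 and 20.6%. From 24 h on the share was 5.44 to 10.9%, a range that holds the lower 0 h value. A 765 nt coding transcript had no reads in the 6 libraries up to 1.5 h and took 4.17 to 17.6% in the 10 libraries from 3 h on. These shares are a description with no test, and the authors' quantification divides the reads between overlapping transcripts. The 1.5 h libraries held 1023 and 1026 reads of the gene, and those from 24 h on held 473 to 903.

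GADD45G (ENSG00000130222, chromosome 9, 89605013 to 89606555) was near the limit of detection. Its libraries held 3 and 8 reads at 0 h, 4 and 1 at 0.5 h, 6 and 0 at 1.5 h, 6 and 6 at 3 h, 33 and 23 at 6 h, and 5 to 15 from 24 h on. At 6 h this was 1.41 and 0.814 CPM, above every other library, the next being at most 0.311 CPM. The fitted value at 6 h was 2.64 ± 0.68 (log2, SE; edgeR adjusted p = 0.00393), with the reservation given above. The difference from 6 to 24 h, -1.99 ± 0.61 (edgeR adjusted p = 0.0135), rests on the same 6 h libraries and supports nothing either. Its call was lost in DESeq2 (adjusted p = 0.0525), without 6 h replicate 1 (-1.57, adjusted p = 0.111), without 24 h replicate 1 (-1.81, adjusted p = 0.0716) and without 24 h replicate 2 (-2.31, adjusted p = 0.0501).

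Counted over the members, 0 of 8 tested genes were called at 0.5 h against 0 h, with 0.171% of all 17559 tested genes called, 0.165% higher and 0.0057% lower. At an unadjusted p under 0.05 there was 1 member, GADD45B, and 3907 genes in all (22.3%), and DESeq2 called 1 member and 96 genes in all. At 1.5 h 4 members were called (17.1% of all genes), 3 higher (9.05%) and 1 lower (8.05%). At 3 h there were 5 (42%), 3 higher (21.5%) and 2 lower (20.5%), and at 6 h there were 7 (57.2%), 5 higher (27.8%) and 2 lower (29.4%). At 24 h there were 5 (58.3%), 3 higher (31.7%) and 2 lower (26.6%). At 48 h there were 6 (54.3%), 4 higher (30.2%) and 2 lower (24.1%), and at 72 h again 6 (58.6%), 4 higher (31.7%) and 2 lower (26.9%). Without GADD45G, which its 6 h libraries let through the filter, 6 of 7 members were called at 6 h, 4 higher and 2 lower. From 6 to 24 h 5 were called (56.6%), 4 lower (25.8%) and 1 higher (30.8%), or 4 of 7 without GADD45G, 3 lower and 1 higher. From 24 to 72 h 1 was called (26.3%), lower (12.4%; 13.9% of all genes were higher). From 24 to 48 h CDKN1C alone was called (15%), higher (8.88%, and 6.12% of all genes were lower). From 48 to 72 h 0 were called (1.47%; 1.14% higher and 0.325% lower), with 2 at an unadjusted p under 0.05, CDKN1C and CDKN2C (11.9% of all genes), and 1 called by DESeq2 among 347 genes in all. The median over the 7 tested members other than GADD45G was 0.87 at 6 h and 0.65 at 72 h on the log2 scale, against 0.00 and -0.03 over all genes. The comparisons with 0 h share the same 2 libraries.

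Tested for any difference among the 8 times, the 7 members other than GADD45G were called, as were 82.9% of all genes. GADD45G was also called, which supports nothing, since the 6 h libraries let it through the filter. The edgeR adjusted p ran from 5.21e-12 for CDKN1A, 9.28e-11 for GADD45B, 3.12e-10 for GADD45A and 1.11e-08 for CDKN2C to 1.48e-05 for CDKN1B, 3.60e-05 for CDKN1C, 0.00267 for GADD45G and 0.0164 for CDKN2D. Without 6 h replicate 1 the last pair was lost (CDKN2D 0.0760, GADD45G 0.0591), and without 6 h replicate 2 CDKN2D was lost (0.0610).

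The order of the members by TPM changed with time below its top. At 0 h it was GADD45A (122 ± 11.3 TPM, SD, n = 2), CDKN2C (49.5 ± 2.33), CDKN1B (25.9 ± 4.78), CDKN1A (10.9 ± 0.534), GADD45B (6.15 ± 0.605), CDKN2D (3.82 ± 0.478), CDKN1C (2.58 ± 0.574) and GADD45G (0.291 ± 0.177). No 2 neighbours in that order had overlapping libraries at 0 h. At 3 h it was GADD45A (717 ± 9.46 TPM), CDKN1A (328 ± 49.5), GADD45B (85.5 ± 9.75), CDKN2C (11.4 ± 1.81) and CDKN1B (10.9 ± 0.596), and the libraries of the last pair overlapped. At 6 h GADD45A was at 795 ± 21.9 TPM, CDKN1A at 270.2 ± 27.01, GADD45B at 68.3 ± 3.90, CDKN1B at 13.6 ± 0.279, CDKN2C at 7.15 ± 0.470 and CDKN2D at 5.97 ± 0.275. At 72 h GADD45A was at 339 ± 57.02 TPM and CDKN1A at 70.7 ± 6.34, while GADD45B (25.2 ± 3.37) and CDKN2C (24.7 ± 3.53) overlapped. CDKN1A thus was in the fourth place at 0 and 0.5 h and in the second from 1.5 h on.

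The genes most like each member over the 16 libraries are given by Pearson's r of log2 CPM among about 7961 genes with enough level and range, as a description, since all share the same libraries and time course. The closest to CDKN1A was another member, GADD45A (r = 0.986), followed by ARC (0.986). GADD45A itself was closest to BAIAP2 (0.993) and SDC4 (0.990). GADD45B was closest to PPP1R15A (0.979), which is known as GADD34, and to MCL1 (0.975). CDKN2C was closest to USP21 (0.988) and TUT1 (0.984) and CDKN1B to ZXDB (0.964) and KDM4A (0.962). The matches of GADD45G (AP1M1 0.915, CHFR 0.909), CDKN1C (HPS1 0.899) and CDKN2D (NCOA6 0.868) were looser. Between members, CDKN2C ran against GADD45A (r = -0.945) and CDKN1A (-0.923), and CDKN1A ran with GADD45B (0.947).

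Of all tested genes, 27.8% were called higher and 29.4% lower at 6 h (57.2% in all), and 31.7% and 26.9% at 72 h (58.6% in all), and the counts of the pathway lists below stand beside these shares. Of 12 CDK and cyclin genes, 2 rose and 5 fell at 6 h and 3 rose and 7 fell at 72 h, with a median of -0.11 and -0.46 on the log2 scale. The share called was thus 58.3% at 6 h, near that of all genes, and 83.3% at 72 h. CCND1, the gene of cyclin D1, had 14.5 ± 1.18 CPM at 0 h, 46.96 ± 2.37 at 6 h and 408 ± 13.99 at 72 h (SD, n = 2), a rise of 4.81 on the log2 scale at 72 h (edgeR adjusted p = 4.67e-13). CCND2, the gene of cyclin D2, had 268 ± 7.24 CPM at 0 h and 24.1 ± 2.04 at 72 h and fell by 3.48 (edgeR adjusted p = 3.16e-12). CDK4, a target of the INK4 proteins that was named after its values were seen, fell by 2.01 at 6 h and by 1.48 at 72 h. Of 22 E2F target genes, which pocket proteins hold silent when the kinases are blocked, 4 rose and 13 fell at 6 h (median -0.40), and 2 rose and 18 fell at 72 h (median -0.95), so that 77.3 and 90.9% were called. E2F2 fell by 2.92 at 6 h (edgeR adjusted p = 6.69e-11), and CDT1, a replication licensing factor, fell by 2.05 at 72 h (adjusted p = 4.44e-07). RRM2, a subunit of ribonucleotide reductase, rose by 2.54 at 6 h and 1.71 at 72 h. The E2F target list shares CCNE1, CCNE2 and CCNA2 with the CDK and cyclin list. Other pathway lists share genes too, so the counts of the lists are not separate observations. Between 24 and 48 h, where CDKN1C rose, 18 of the 22 E2F targets rose and 0 fell (median 0.57), against 8.88% of all genes called higher and a median of 0.00 over all genes.

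**Figure D5:**
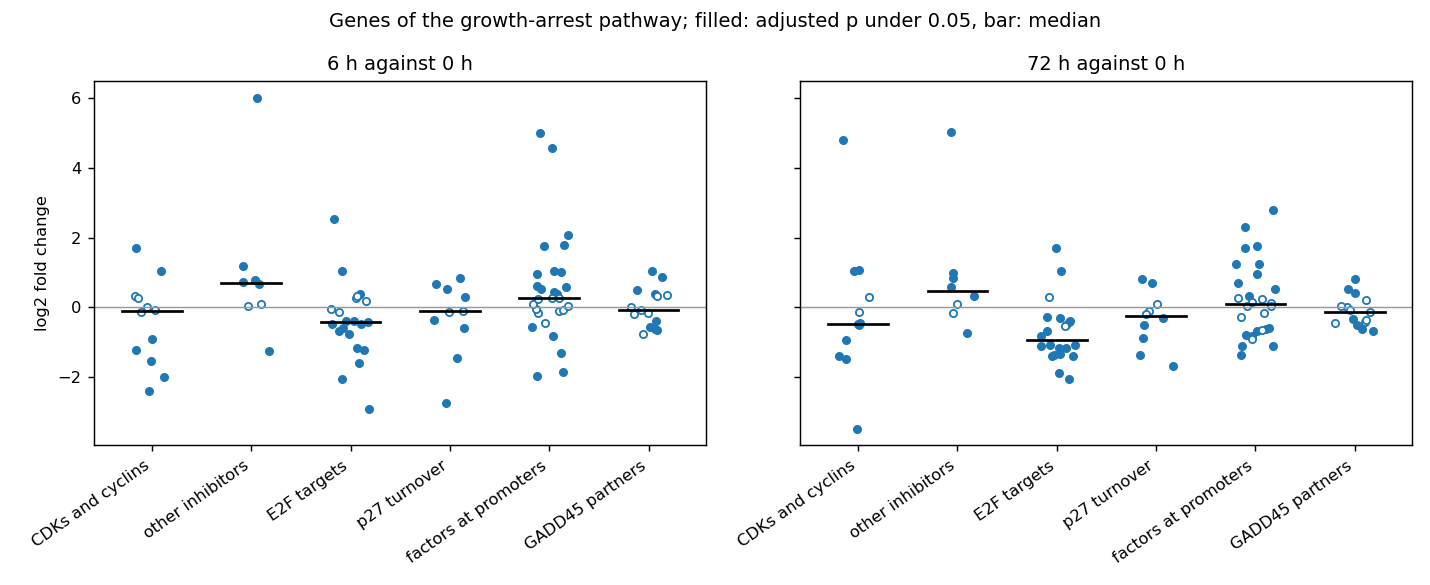
Log2 fold change at 6 h (left) and 72 h (right) against 0 h (vertical axis) of the tested genes of 6 pathway lists (horizontal axis), 1 point per gene, filled where the edgeR adjusted p is under 0.05, with a bar at each list's median. The E2F target list has a median of -0.40 at 6 h and -0.95 at 72 h, and BTG2 is the highest point of both panels.

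Other brakes on the cycle included genes that rose far. Of 8 tested genes of other inhibitors, pocket proteins and antiproliferative proteins, 5 rose and 1 fell at 6 h and again at 72 h (75.0% called), with medians of 0.70 and 0.46. BTG2, an antiproliferative gene, had 11.05 ± 1.22 CPM at 0 h, 719 ± 42.5 at 6 h and 362 ± 0.663 at 72 h (SD, n = 2; log2 6.02 and 5.03, edgeR adjusted p = 3.10e-13 and 4.57e-13). RB1, the retinoblastoma gene, named after its values were seen, rose by 0.80 and 0.99. RBL2, the gene of p130, fell by 1.25 at 6 h (edgeR adjusted p = 4.46e-07), and CDKN3 fell by 0.73 at 72 h (adjusted p = 7.63e-04). Of 10 genes of p27 turnover, 4 rose and 4 fell at 6 h and 2 rose and 5 fell at 72 h (8 and 7 of 10 called, medians -0.11 and -0.24). SKP2, which marks p27 for destruction and was also named after its values were seen, fell by 1.46 and 1.35. UBAC1, a subunit of another p27 ligase, fell by 2.74 and 1.69. CUL1 rose by 0.84 at 6 h (edgeR adjusted p = 0.0211), but without 6 h replicate 1 the value was 0.32 (adjusted p = 0.380), and the call was also lost without 0 h replicate 1 (0.0918) or 0 h replicate 2 (0.0580). UHMK1 rose by 0.81 at 72 h (edgeR adjusted p = 0.00353), or 0.49 without 72 h replicate 1 (adjusted p = 0.0651).

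The last lists hold genes of factors known at the promoters of the members and genes of GADD45 partners. Of 28 promoter factors, 13 rose and 5 fell at 6 h (median 0.28) and 10 rose and 8 fell at 72 h (median 0.09), 64.3% called at both times against 57.2 and 58.6% of all genes. KLF6, which binds GC-rich promoters, had 84.8 ± 1.099 CPM at 0 h and 2702 ± 109 at 6 h (SD, n = 2; log2 4.99, edgeR adjusted p = 5.86e-13), and EGR1 was 2.79 higher at 72 h (adjusted p = 3.71e-08). ID1 fell by 1.84 at 6 h and MYC, a repressor of CDKN1A, by 1.37 at 72 h (edgeR adjusted p = 3.95e-06 and 2.92e-05). Of 15 genes of GADD45 partners, 4 rose and 4 fell at 6 h and 3 rose and 4 fell at 72 h (53.3 and 46.7% called, medians -0.06 and -0.12). TDG, a DNA demethylation enzyme, rose by 1.04 at 6 h, MAP2K4 rose by 0.83 at 72 h, MAPK14 (p38) fell by 0.66 at 6 h and PCNA fell by 0.66 at 72 h (edgeR adjusted p = 7.82e-06, 4.59e-05, 7.26e-05 and 8.51e-05).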

How the data were processed

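RNA of 16 K562 libraries was quantified per transcript by the authors with salmon, and the deposited tables give, per the file headers, an estimated count of reads (not whole numbers) and TPM for 177456 transcripts. The submitters' processing notes also name Trim Galore 0.4.3, HISAT2 2.1.0 and both hg19 and hg38. Which build the salmon index used, and whether bias correction was on, is not given in the sources used here. Samples were grouped by the time in their labels.

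Estimated counts were summed per gene by the GENCODE 29 annotation (167027 transcripts matched, 35052 genes; the rest held 3.01 to 3.75% of reads) and rounded. The deposited TPM values were summed in the same way. Gene coordinates are those of GRCh38 in that annotation, and promoter sequences are from RefSeq. The test of counts used R 4.3.3 and edgeR 4.0.16, scaling by TMM (factors of 0.854 to 1.14), filterByExpr for low counts (17559 genes left), all 16 libraries in a joint quasi-likelihood fit with 8 residual degrees of freedom, a prior count of 0.125 and Benjamini-Hochberg adjustment over all genes tested, called at an adjusted p under 0.05. CPM is relative to the TMM-scaled library. SE is the unshrunk log2 fold change over the square root of F. The test was tested on simulated data.

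The members and the pathway lists were chosen with earlier results of these data known, and the comparisons of 48 with 24 h and of 72 with 48 h were added after the values were seen. Named were all members, the called gene of each pathway list with the largest rise and the largest fall at 6 and 72 h (mean of at least 5 CPM), and the 2 genes most like each member (mean of at least 5 CPM and a log2 range of at least 1). Some genes that this rule gives, and a pathway list, are not reported here. CDK4, RB1 and SKP2 were named after their values were seen. Library totals of 27285773 to 54056289 set the precision, and limits from 3 reads cover counting error only. Alternatives were other scaling, no and stricter low-count filters (10 reads in every library), length-scaled counts from TPM, a replicate block, removal of a GC trend, each library left out, fits of only the groups compared, and DESeq2 1.42.0.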

Additional observations from a re-analysis of the deposited data

How the results depend on the processing

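Of 1168 alternative values for 45 fold changes of the 8 tested members, 1127 kept their direction and their side of the threshold, 21 lost and 20 gained a call, and 0 changed direction. Of 728 for 28 pathway gene changes, 723 kept both and 5 lost the call. The 45 member changes were those called in the main fit and a few uncalled ones picked by hand, which hold all 20 gains. The other uncalled member changes were left out, so any calls they gained are not in this count. The 28 pathway gene changes were all called in the main fit and could not gain a call. At 0.5 h GADD45B gained a call: the member count of 0 became 1 without the low-count filter, with the replicate block, with the GC trend removed, with both, and in DESeq2, and 0 to 1 with single libraries left out. From 48 to 72 h the count of 0 became 1 under the same 5 alternatives and was 0 to 1 with single libraries left out. From 24 to 72 h the count of 1 became 2 with the GC trend removed and the replicate block, and was 0 to 1 with single libraries left out. From 24 to 48 h it became 2 in the fit of the 2 time points alone. The larger counts also moved under some alternatives. Against 0 h, CDKN1C was lost at 72 h, CDKN2D at 6 h and CDKN1B at 24 h. CDKN1C was gained at 3 h and CDKN1B at 1.5 h. From 6 to 24 h GADD45G was lost and CDKN2D gained. The cause was not tested. The labels do not say whether replicate numbers pair the libraries. Deviations of same-numbered libraries correlated at -0.118 to 0.211, above 0.1 in 14 of 28 pairs of times. Replicate number also went with a technical difference. After 0 h, the median gap between length and effective length of long transcripts was 210 to 221 nt in replicate 1. It was 229 to 248 nt in replicate 2. At 0 h the order was reversed, with 217 and 199 nt. The replicate block is given only here, and the part of this gap in the results was not tested. GADD45G could not be fitted under the filter of 10 reads in every library. With 2 libraries a time, the shared estimate of the spread carries these tests, and CDKN1C, CDKN2D and GADD45G rest on few reads.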
